A study of Mus musculus with 6 samples.

Results

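Fatty acid oxidation and ketogenesis are described here by 34 genes, chosen by name for their place in mitochondrial or peroxisomal breakdown of fatty acids or in its supply and regulation. All 34 were found by Ensembl identifier among the 55802 rows of the deposited count table, and all 34 were among the 15579 genes that passed the filter on low counts. Liver RNA of wild-type C57BL/6 mice was sequenced in 6 libraries, 3 from mice given oil (controls) and 3 from mice given CCl4. CCl4 is carbon tetrachloride, a solvent that hepatocytes turn into a reactive radical and that is used in rodents to injure the liver and bring about fibrosis. The labels give no dose, duration, age or sex, and nothing in them ties each library to its own animal. The p-values therefore weigh differences against library-to-library spread, whatever its source.

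Hepatocytes burn fatty acids in both organelles. Acyl-CoA synthetases activate fatty acids, the carnitine shuttle carries long chains into mitochondria, and a spiral of dehydrogenation, hydration, dehydrogenation and thiolysis then releases acetyl-CoA, which in fasting feeds ketone body synthesis. Peroxisomes shorten very long and branched chains by a parallel set of enzymes and pass the shortened products on to mitochondria. In liver the nuclear receptor PPARα, encoded by Ppara, switches on many genes of both arms by binding, with RXR, a direct repeat of AGGTCA with 1 base between the copies.

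Library totals ran from 18929972 to 20042731 counts. Levels are in counts-per-million units (CPM) of the library size after TMM scaling, which evens out differences in RNA composition, fold changes are CCl4 over control, and adjusted p-values come from edgeR's quasi-likelihood test with Benjamini-Hochberg adjustment over all 15579 genes, called at 0.05. At that threshold 41.3% of all genes tested were called, 20.1% lower and 21.2% higher, so a call by itself is common in this comparison. Of 17 tested hepatocyte markers, most of them for secreted proteins, 4 were called lower and 4 higher. They summed to between 140790.0 and 144480.0 CPM in controls and between 142710.0 and 157890.0 in CCl4 livers. Of 12 markers of pericentral hepatocytes 10 were called lower, and their sum went from 12686 to 13576 CPM in controls to 3928 to 5373 in CCl4 livers. Of 12 periportal markers 3 were called lower and 2 higher (sums 12053 to 12582 and 10969 to 11230 CPM). Of 15 macrophage markers 13 were called higher (465 to 605 and 1225 to 1316 CPM), and of 12 stellate cell and myofibroblast markers 9 (324 to 389 and 1163 to 1269 CPM). Also called higher were 10 of 10 cell cycle markers (13.7 to 19.3 and 118 to 246 CPM), 5 of 6 tested cholangiocyte markers (51.5 to 95.4 and 254 to 339 CPM) and 5 of 5 tested neutrophil markers (6.997 to 10.8 and 29.4 to 32.8 CPM). Sums over 8 adipocyte markers were 61.4, 26.6 and 97.8 CPM in controls 1, 2 and 3 and 28.2 to 32.3 CPM in CCl4 livers, and sums over 8 muscle markers stayed at or under 6.54 CPM in every library. In whole liver, fewer cells of a type and less RNA per cell cannot be told apart, and the part of these shifts in the results below was not tested.

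Promoters are shown first for the members with a near match to the PPARα repeat, or with its single unit, close to their start. RefSeq promoter sequence (GRCm38.p6) was at hand for 30 of the 34 members, and the 250 bases before the gene start were searched on both strands for AGGTCA repeated after 1 spacer base, comparing the 12 bases outside the spacer. The exact repeat was in 0 of 30 members and in 11 of 27025 genes with a promoter (0.0407%). Fabp1, which fell most of all members, was the 1 member of 30 (3.33%) within 1 mismatch of the repeat, against 0.566% of those genes; this limit was chosen after the matches were seen. The 250 bases before its start, at chr6:71199629-71199878 on the plus strand, follow, with the near match, which lies on the opposite strand and begins 67 bases before the start, in capitals.
Fabp1: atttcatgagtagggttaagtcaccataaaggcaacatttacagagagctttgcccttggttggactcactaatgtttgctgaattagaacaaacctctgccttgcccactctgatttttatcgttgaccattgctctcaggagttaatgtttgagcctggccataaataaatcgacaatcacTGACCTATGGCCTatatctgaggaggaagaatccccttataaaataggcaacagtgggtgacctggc

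With up to 2 mismatches the electron carrier gene Etfa joined Fabp1 (2 of 30 members, 6.67%, against 3.72% of all genes). Its near match also lies on the strand opposite to the gene, 77 bases before the start, at chr9:55512302-55512326 with the gene on the minus strand. The single AGGTCA, on either strand, was in the window of 5 of 30 members (16.7%) against 15.8% of all genes. These were Fabp1 and the 4 printed after Etfa, in which capitals mark the 6 bases of the match (in Etfa they mark the near match). Scp2 lies at chr4:108118642-108118665 on the minus strand, Cpt1a at chr19:3323198-3323221 on the plus strand, Acadvl at chr11:70015501-70015524 on the minus strand and Acadm at chr3:153944878-153944893 on the minus strand.
Etfa: acacccTTACCTTTGCCCTactccc
Scp2: taacacagtAGGTCAaaagaaccc
Cpt1a: tttccttacTGACCTcctccccgc
Acadvl: gatcaccctAGGTCAggtagaata
Acadm: gTGACCTtcgggctcc

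Among these 6 members, Fabp1, Scp2, Cpt1a and Acadvl were called lower in CCl4 livers, while Etfa and Acadm were not called. Of all 34 members 20 were called lower (58.8%), and of all genes tested 20.1%. Whether these letters bear on the calls was not tested. A match is a description of these letters and no measure of binding, and sites farther from the start were not searched.

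The comparison of CCl4 with oil shows which steps of the pathway differed in injured liver. Of the 34 members 20 were called lower and 1, the thioesterase gene Acot2, higher, which is 58.8% lower against 20.1% of all genes. The median log2 fold change of the members was -0.30, against 0.00056 over all genes tested. The groups did not overlap for 23 members, 22 lower and 1 higher, where 54.0% of all genes had groups that did not overlap. The falls were mostly modest. Fabp1 alone passed a log2 fold change of -1, and the other 19 members called lower lay between -0.93 (Scp2) and -0.21 (Acaa2). The summed level of all 34 members was 16325 to 17237 CPM in controls and 10943 to 11857 in CCl4 livers, and Fabp1 and Scp2 made up much of both sums. On the scale of library size alone, where the median of all genes moves up by 0.147, 14 members were called lower and 3 higher. There Cpt1a, Etfdh, Acads, Acaa2, Hsd17b4 and Vnn1 lost their calls, the last 4 of them also with upper quartile scaling, while Acadm and Hadh were called higher with both. Directions below are on the TMM scale.

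**Figure D1:**
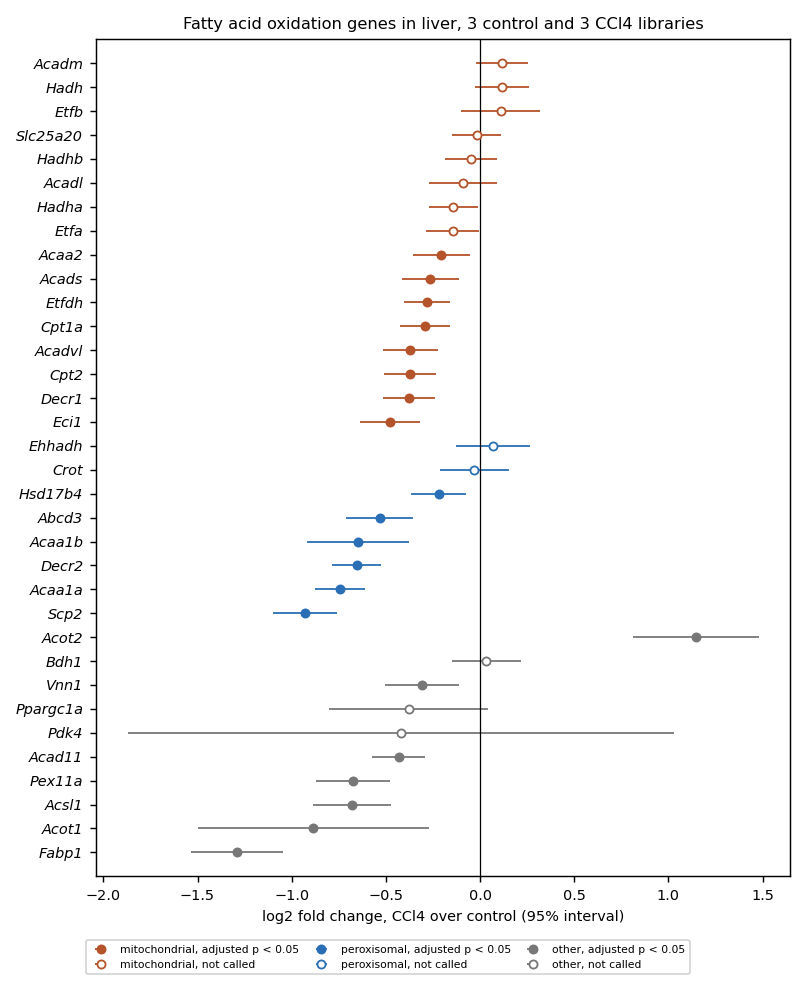
Log2 fold change (CCl4 over control, x axis) with its 95% interval for each of the 34 members, ordered within the 16 mitochondrial enzymes (orange), 8 peroxisomal enzymes (blue) and 10 other members (grey). Filled points passed an adjusted p of 0.05. Fabp1 (-1.29) is lowest and Acot2 (1.15) is the only member called higher.

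The members for binding and activation, Fabp1 and Acsl1, were both called lower. Fabp1 (ENSMUSG00000054422), which encodes the cytosolic fatty acid-binding protein of hepatocytes, stood at 2902, 2646 and 3146 CPM in the controls and 1096, 1377 and 1078 CPM after CCl4. All 3 CCl4 libraries lay far below the lowest control, a 2.45-fold fall (log2 fold change -1.29 with an SE of 0.11, adjusted p = 3.53e-05). Acsl1 (ENSMUSG00000018796), a long-chain acyl-CoA synthetase that commits fatty acids to metabolism, stood at 1092, 1322 and 1119 CPM in the controls and 667, 761 and 778 CPM after CCl4. Its groups were also apart, although control 2 stood above the other controls, and the fall was 1.60-fold (log2 fold change -0.68 with an SE of 0.09, adjusted p = 3.83e-04). Acsl1 is 1 synthetase among several, and those that follow were named after their values were seen. Acsl4 was called higher (log2 fold change 0.34, adjusted p = 0.00346), and Acsl3 (0.29) and Acsl5 (-0.03) were not called. Per kilobase of exon, Fabp1 was the most abundant member in controls at 5241 CPM per kb and also in CCl4 livers at 2141. Levels and ratios per kilobase compare genes only roughly, because the summed exons exceed the coding transcripts by unlike amounts. Hadhb has 6595 exon bases and 2170 distinct 50-base windows in its coding transcripts, and Acaa2 has 1516 and 1505.

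The carnitine shuttle fell at both of its acyltransferases and was not called at the carrier between them. Cpt1a (ENSMUSG00000024900), the regulated step at which long chains enter mitochondria, stood at 383, 416 and 407 CPM in the controls and 318, 334 and 334 CPM after CCl4. Each CCl4 library was below each control, but the fall was small (log2 fold change -0.29 with an SE of 0.06, adjusted p = 0.00364). Cpt2 (ENSMUSG00000028607), which rebuilds acyl-CoA inside the inner membrane, stood at 146, 145 and 149 CPM in the controls and 104, 116 and 119 CPM after CCl4, again with no overlap (log2 fold change -0.37 with an SE of 0.06, adjusted p = 0.00124). Slc25a20, the carnitine-acylcarnitine translocase, was at 108 ± 5.99 CPM in the controls and 107 ± 2.68 after CCl4 (SD, n = 3), with a log2 fold change of -0.02 and a 95% interval of -0.15 to 0.11.

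Among the mitochondrial acyl-CoA dehydrogenases, which start each turn of the spiral and differ in the chain length they take, the very-long-chain and short-chain enzymes fell and the long-chain and medium-chain ones were not called. Acadvl (ENSMUSG00000018574, very long chains) stood at 193, 195 and 221 CPM in the controls and 155, 156 and 161 CPM after CCl4. The groups were apart (log2 fold change -0.37 with an SE of 0.07, adjusted p = 0.00170). Acads (ENSMUSG00000029545, short chains) stood at 128, 125 and 139 CPM in the controls and 100.2, 112 and 114 CPM after CCl4, with every CCl4 library below the controls (log2 fold change -0.26 with an SE of 0.07, adjusted p = 0.0121). Acadm (medium chains) was at 294 ± 15.6 CPM in the controls and 319 ± 10.01 after CCl4 (SD, n = 3), a log2 fold change of 0.12 with an interval of -0.02 to 0.26, and Acadl (long chains) at 192 ± 22.0 CPM in the controls and 180.0 ± 0.730 after CCl4 (SD, n = 3), -0.09 with an interval of -0.27 to 0.09. Acad11 (ENSMUSG00000090150), an acyl-CoA dehydrogenase reported in both organelles, stood at 275, 296 and 295 CPM in the controls and 225, 215 and 202 CPM after CCl4 and fell (log2 fold change -0.43 with an SE of 0.06, adjusted p = 5.89e-04). Acadvl shares 23.5% of its 50-base windows with the overlapping gene Dvl2, so some of its reads may have been counted elsewhere or not at all.

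Within the spiral proper, the auxiliary enzymes for unsaturated fatty acids had the lowest log2 fold changes. Eci1 (ENSMUSG00000024132), the enoyl-CoA isomerase, stood at 96.9, 99.3 and 112 CPM in the controls and 68.5, 74.8 and 77.7 CPM after CCl4 (log2 fold change -0.48 with an SE of 0.07, adjusted p = 6.69e-04). Decr1 (ENSMUSG00000028223), the mitochondrial dienoyl-CoA reductase, stood at 163, 170.5 and 182 CPM in the controls and 127, 139 and 131 CPM after CCl4 (log2 fold change -0.38 with an SE of 0.06, adjusted p = 0.00118). For both, every CCl4 library was below every control. Acaa2 (ENSMUSG00000036880), the mitochondrial thiolase and the most abundant mitochondrial enzyme gene per kilobase (493 CPM per kb in controls), stood at 751, 706 and 788 CPM in the controls and 639, 683 and 624 CPM after CCl4. That difference was called but small (log2 fold change -0.21 with an SE of 0.07, adjusted p = 0.0352), and it lost its call when control 1, control 3, CCl4 1 or CCl4 3 was left out.

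Hadha and Hadhb encode the 2 subunits of the trifunctional protein, and their RefSeq starts lie 272 bases apart on chromosome 5 (30154980, minus strand, and 30155253, plus strand, GRCm38.p6), facing away from each other. Hadha stood at 340.2, 349 and 371 CPM in the controls and 317, 318 and 324 CPM after CCl4. Those libraries did not overlap, but the difference was not called (log2 fold change -0.14, adjusted p = 0.0750). Hadhb stood at 145, 150.3 and 164 CPM in the controls and 145, 148 and 151 CPM after CCl4, with overlapping groups (log2 fold change -0.05, adjusted p = 0.559). Their ratio per kilobase was 1.71 to 1.77 in controls and 1.62 to 1.65 in CCl4 livers. Hadhb shares 57.5% of its 50-base windows with other genes, most of them with Gm13910, so its level is uncertain. Hadh, the dehydrogenase for shorter chains, was at 287 ± 10.9 CPM in the controls and 312 ± 18.7 after CCl4 (SD, n = 3), with an interval of -0.03 to 0.26 on the log2 scale.

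Electrons from the dehydrogenases pass through the flavoprotein encoded by Etfa and Etfb to the oxidoreductase encoded by Etfdh. Etfdh (ENSMUSG00000027809) stood at 272, 281 and 289 CPM in the controls and 229, 228 and 234 CPM after CCl4 and fell with no overlap (log2 fold change -0.28 with an SE of 0.05, adjusted p = 0.00267). Etfa was at 361 ± 21.7 CPM in the controls and 326 ± 3.10 after CCl4 (SD, n = 3), with groups apart but no call (log2 fold change -0.15, adjusted p = 0.0872). Without control 2 Etfa was called lower (log2 fold change -0.19, adjusted p = 0.0457). Etfb was at 14.9 ± 1.02 CPM in the controls and 16.1 ± 1.41 after CCl4 (SD, n = 3), 0.11 on the log2 scale with an interval of -0.10 to 0.32. Although both encode subunits of the same flavoprotein, Etfa stood 15.4 times as high as Etfb per kilobase in controls, and 57.7% of the 50-base windows of Etfb are shared with Gm45233, which may take some of its reads.

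The ketone body member did not move detectably. Bdh1, the dehydrogenase that interconverts acetoacetate and β-hydroxybutyrate, stood at 231, 212 and 257 CPM in the controls and 223, 237 and 257 CPM after CCl4, with overlapping groups. Its log2 fold change was 0.03, with a 95% interval of -0.15 to 0.22 (adjusted p = 0.769). A list of 9 ketone body genes gave 1 call lower (11.1%) and 2 higher, against 20.1% lower and 21.2% higher of all genes. Acat1, the mitochondrial acetoacetyl-CoA thiolase, went from 417 ± 27.3 to 309.7 ± 12.5 CPM (SD, n = 3, log2 fold change -0.43 with an SE of 0.07, adjusted p = 8.46e-04). Oxct1, which lets tissues other than hepatocytes burn ketone bodies, went from 6.04 ± 0.631 to 17.4 ± 1.59 CPM (log2 fold change 1.53 with an SE of 0.11, adjusted p = 1.52e-05).

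Of the peroxisomal enzymes 6 of 8 fell, and Scp2 and the thiolase genes Acaa1a and Acaa1b were among the strongest. Scp2 (ENSMUSG00000028603), whose locus encodes sterol carrier protein and a thiolase for branched chains, stood at 4363, 4314 and 4334 CPM in the controls and 2223, 2504 and 2109 CPM after CCl4. Control libraries were nearly identical and every CCl4 library was well below them, a 1.90-fold fall (log2 fold change -0.93 with an SE of 0.08, adjusted p = 2.50e-05). Acaa1a (ENSMUSG00000036138), a straight-chain thiolase, stood at 204, 211 and 203 CPM in the controls and 119.6, 131 and 119 CPM after CCl4 and fell 1.67-fold (log2 fold change -0.74 with an SE of 0.06, adjusted p = 2.25e-05). Its close copy Acaa1b (ENSMUSG00000010651) stood at 729, 975 and 868 CPM in the controls and 494, 536 and 613 CPM after CCl4 and fell 1.57-fold (log2 fold change -0.65 with an SE of 0.12, adjusted p = 0.00274). The groups were apart for all 3 genes. Acaa1a and Acaa1b share 26.7% and 35.5% of their 50-base windows with each other, so the split of reads between them is uncertain, and their summed counts also fell (log2 fold change -0.66, adjusted p = 6.66e-04). Scp2 shares 37.5% of its windows with Scp2-ps2, and counts per gene do not tell its sterol carrier and thiolase products apart.

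Transport into peroxisomes and the auxiliary reductase also fell. Abcd3 (ENSMUSG00000028127), a transporter of acyl-CoA in the peroxisomal membrane, stood at 688, 795 and 757 CPM in the controls and 471, 535 and 543 CPM after CCl4, with no overlap (log2 fold change -0.53 with an SE of 0.08, adjusted p = 6.64e-04). Decr2 (ENSMUSG00000036775), the peroxisomal dienoyl-CoA reductase, stood at 219, 229 and 233 CPM in the controls and 146, 149 and 137 CPM after CCl4, also with no overlap (log2 fold change -0.65 with an SE of 0.06, adjusted p = 3.88e-05). The ratio of Decr1 to Decr2 per kilobase was 0.508 to 0.533 in controls and 0.594 to 0.651 in CCl4 livers, so the peroxisomal reductase stood relatively lower after CCl4. These ratios do not depend on how the libraries are scaled.

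Of the bifunctional enzymes of peroxisomes, Hsd17b4 was called lower and Ehhadh was not called. Hsd17b4 (ENSMUSG00000024507), the D-bifunctional protein for very long and branched chains, stood at 387, 418 and 424 CPM in the controls and 357, 366 and 333 CPM after CCl4 and fell a little (log2 fold change -0.22 with an SE of 0.06, adjusted p = 0.0220). The difference no longer passed without control 2, control 3 or CCl4 1. Ehhadh, the L-bifunctional protein, was at 299.8 ± 33.96 CPM in the controls and 315 ± 20.5 after CCl4 (SD, n = 3), with overlapping groups and an interval of -0.13 to 0.27 on the log2 scale. The ratio of Hsd17b4 to Ehhadh per kilobase was 1.12 to 1.30 in controls and 0.867 to 1.08 in CCl4 livers. Crot, which turns shortened acyl-CoA into carnitine esters for export, was at 1046 ± 111 CPM in the controls and 1024 ± 41.7 after CCl4 (SD, n = 3) with an interval of -0.21 to 0.15. Pex11a (ENSMUSG00000030545), which promotes peroxisome division, stood at 56.9, 72.3 and 62.1 CPM in the controls and 40.7, 41.4 and 37.7 CPM after CCl4 and fell with no overlap (log2 fold change -0.67 with an SE of 0.09, adjusted p = 3.36e-04).

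**Figure D2:**
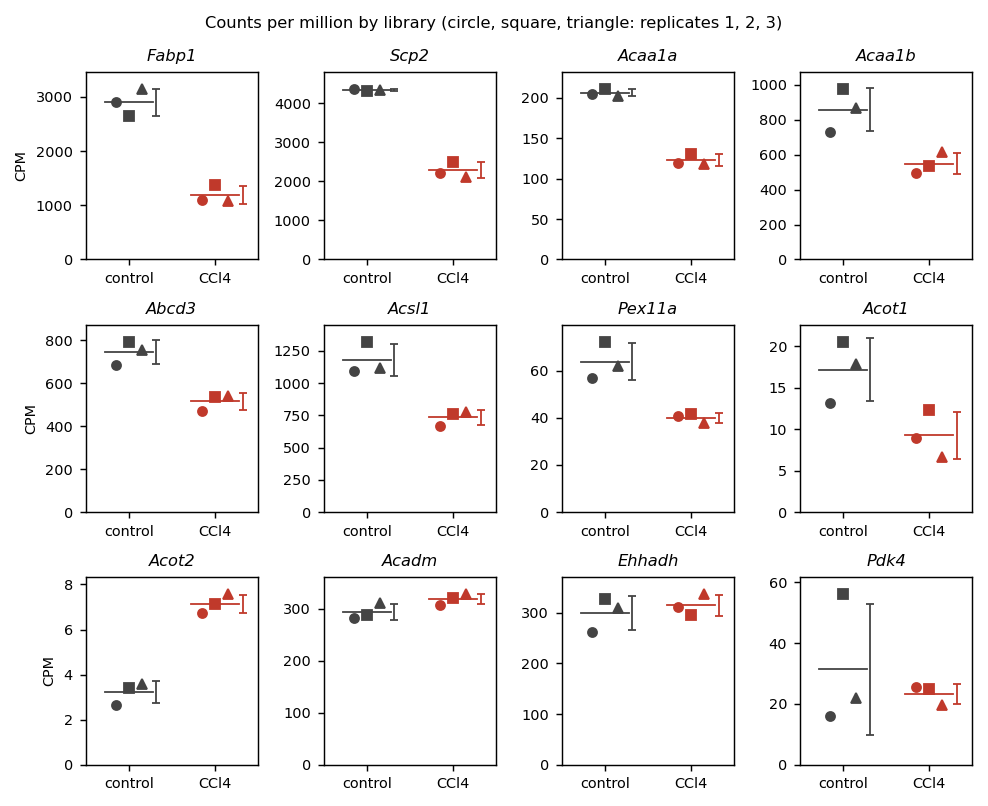
CPM (y axis, each from 0 on its own scale) in the 3 control and 3 CCl4 libraries for 12 members; circle, square and triangle are replicates 1, 2 and 3, the line is the mean and the bar 1 SD either side. Acot1 and Acot2 move in opposite directions, and Pdk4 in control 2 stands apart at 56.0 CPM.

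The thioesterase genes Acot1 and Acot2, which release free fatty acids from acyl-CoA in the cytosol and in mitochondria, moved in opposite directions. Acot1 (ENSMUSG00000072949) stood at 13.1, 20.6 and 17.9 CPM in the controls and 8.92, 12.3 and 6.68 CPM after CCl4. Its groups were apart and the fall was called (log2 fold change -0.89 with an SE of 0.26, adjusted p = 0.0325), but the call was lost without control 2, control 3, CCl4 1 or CCl4 3 (adjusted p 0.0619 to 0.107) and when low-count genes were all kept (adjusted p = 0.14). Acot2 (ENSMUSG00000021226) stood at 2.66, 3.40 and 3.60 CPM in the controls and 6.75, 7.12 and 7.57 CPM after CCl4, a 2.22-fold rise (log2 fold change 1.15 with an SE of 0.15, adjusted p = 3.03e-04). Acot1 per kilobase was 2.77, 3.39 and 2.78 times Acot2 in controls 1, 2 and 3 and 0.740, 0.969 and 0.495 times in CCl4 livers. The step down does not depend on the lengths used, but the level of the ratio does. Acot1 has 3919 exon bases and 2245 distinct 50-base windows in its coding transcripts, and Acot2 has 2196 and 2147. Whether Acot1 stood below Acot2 in CCl4 livers therefore cannot be read from these ratios. Both levels are low, and 23.5% of the windows of Acot1 are shared with Acot2, so the split of reads is uncertain. Their summed counts gave a log2 fold change of -0.31 (adjusted p = 0.194), which was not called.

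Of the 3 members known for following the lipid state of the liver, Vnn1 fell and Pdk4 and Ppargc1a were not called. Vnn1 (ENSMUSG00000037440), a pantetheinase that is a PPARα target, stood at 40.5, 46.7 and 45.7 CPM in the controls and 37.7, 38.3 and 31.4 CPM after CCl4 (log2 fold change -0.31 with an SE of 0.09, adjusted p = 0.0197). Its groups did not overlap, and the call was lost without control 2 or control 3. Pdk4, the kinase that spares glucose by switching off pyruvate dehydrogenase, stood at 15.9, 56.0 and 22.1 CPM in the controls and 25.6, 25.0 and 19.6 CPM after CCl4. Control 2 stood at 2.96 times the mean of the other controls, and the interval of -1.87 to 1.03 on the log2 scale bounds the change only loosely. Ppargc1a, a coactivator of mitochondrial genes, stood at 11.98, 9.56 and 14.5 CPM in the controls and 8.82, 7.62 and 11.2 CPM after CCl4 (log2 fold change -0.38, adjusted p = 0.137), and it was called lower without control 2 (-0.52) or CCl4 3 (-0.55).

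**Figure D3:**
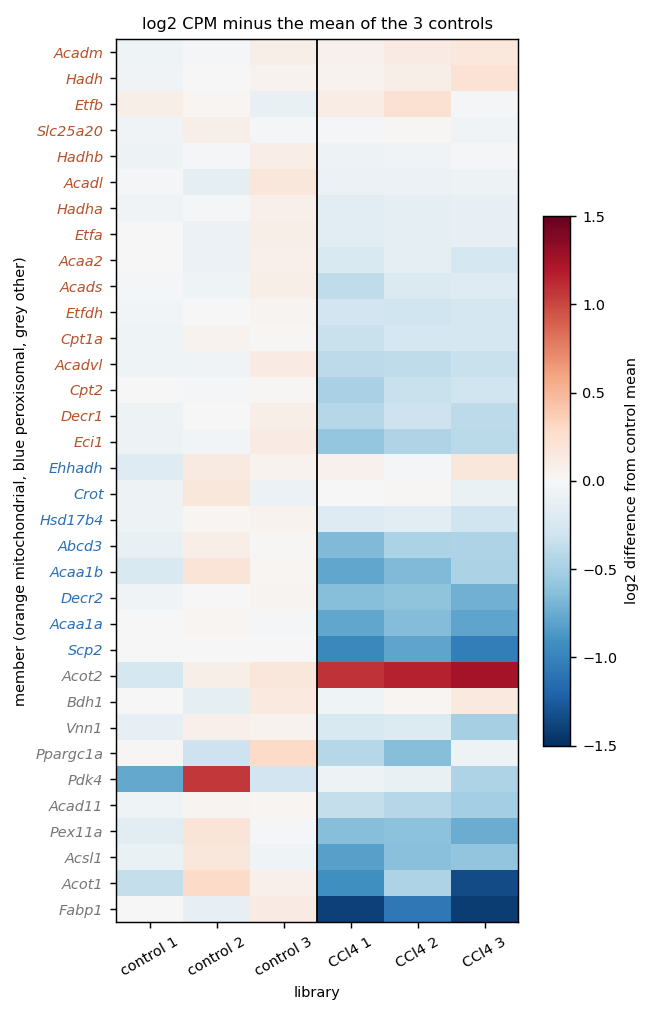
Log2 CPM of each member (rows, grouped as mitochondrial, peroxisomal and other) minus its mean in the 3 controls, by library (columns). Red is above and blue below the control mean; Fabp1, Scp2 and Acaa1a are blue in all 3 CCl4 libraries and Acot2 is red in all 3.

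Set side by side, the peroxisomal members had the lower median, but in broader lists for each organelle the order was the other way round. Of 16 mitochondrial enzymes 8 were called lower and 0 higher, with a median log2 fold change of -0.18 and a range from -0.48 to 0.12. Of 8 peroxisomal enzymes 6 were called lower and 0 higher, with a median of -0.59 and a range from -0.93 to 0.07. For the mitochondrial enzymes the mean log2 CPM was 7.53, 7.54 and 7.63 in controls and 7.36, 7.42 and 7.42 in CCl4 livers. For the peroxisomal enzymes it was 9.13, 9.31 and 9.23 in controls and 8.73, 8.80 and 8.76 in CCl4 livers. The peroxisomal mean less the mitochondrial mean, which cancels the scaling of a library, was 1.60 to 1.76 in controls and 1.34 to 1.38 in CCl4 livers. These ranges did not overlap, and the difference changed by -0.29. Genes are not replicates and the members were chosen by hand, so no test of the organelles was made. Among genes outside the members, the median was -0.42 over a list of 26 mitochondrial oxidation genes (73.1% called lower). It was -0.23 over a list of 40 peroxisomal and related genes (52.5%). Both lists reach beyond fatty acid oxidation. The mitochondrial one holds genes of amino acid breakdown such as Ivd and Gcdh. The peroxisomal one holds ether lipid genes such as Agps and Gnpat, and Acsf3, a mitochondrial enzyme. The lower peroxisomal median thus holds for these members and not for the broader lists, which do not settle the order for fatty acid oxidation alone. Scp2 carries part of the difference, which without it changed by -0.22, a setting added after the data were seen.

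**Figure D4:**
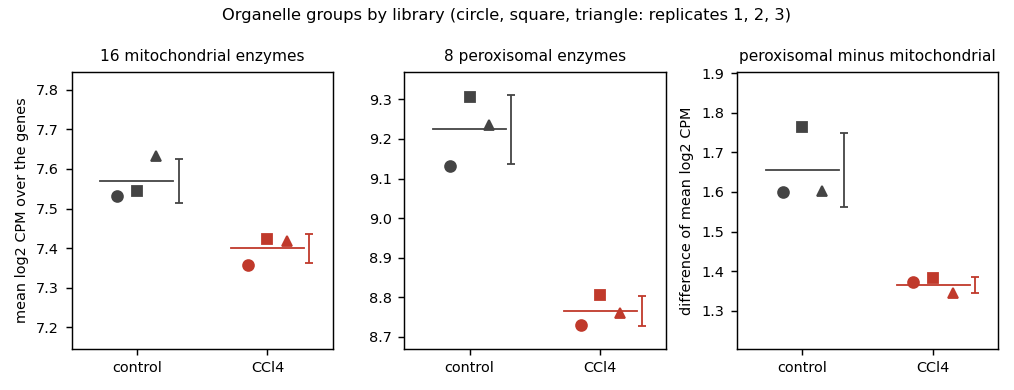
Mean log2 CPM over 16 mitochondrial enzymes (left), over 8 peroxisomal enzymes (middle) and the second less the first (right) in each library, with the group mean (line) and 1 SD either side (bar); y axes do not start at 0. In the right panel controls lie at 1.60 to 1.76 and CCl4 livers at 1.34 to 1.38.

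In summed CPM the mitochondrial enzymes went from 3844 to 4147 in controls to 3435 to 3566 in CCl4 livers, and the peroxisomal enzymes from 7840 to 8443 to 5166 to 5569. Without Scp2 the peroxisomal sum was 3477 to 4129 in controls and 2945 to 3065 in CCl4 livers. The fall was uneven within both organelles. Ehhadh and Crot among peroxisomal enzymes, and Slc25a20, Acadl, Acadm, Hadha, Hadhb, Hadh, Etfa and Etfb among mitochondrial ones, were not called.

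Other genes in and around the pathway, from 5 lists, were called lower in 62 (51.2%) and higher in 13 of 121 tested. Of all genes tested 20.1% were called lower and 21.2% higher. The median log2 fold change of the 121 was -0.25. Of 26 further mitochondrial oxidation genes 19 were lower and 3 higher. Acsm1, a medium-chain acyl-CoA synthetase, fell from 444 ± 9.61 to 248 ± 10.7 CPM (SD, n = 3, log2 fold change -0.84 with an SE of 0.06, adjusted p = 1.09e-05), and Crat, carnitine acetyltransferase, rose from 39.6 ± 9.03 to 55.6 ± 2.10 CPM (log2 fold change 0.49 with an SE of 0.16, adjusted p = 0.0456). Of 40 further peroxisomal and related genes 21 were lower and 4 higher. Nudt7, a peroxisomal CoA hydrolase, fell from 785 ± 41.0 to 199 ± 37.7 CPM (log2 fold change -1.98 with an SE of 0.13, adjusted p = 2.50e-05), and Abcd2, a very-long-chain acyl-CoA transporter, rose from 33.6 ± 9.34 to 76.8 ± 9.45 CPM (log2 fold change 1.19 with an SE of 0.21, adjusted p = 0.00703). Of 17 genes for peroxins, which build peroxisomes, and for the peroxisomal membrane proteins Pxmp2 and Pxmp4, 9 were lower and 0 higher. Pex6, an ATPase of the import receptor cycle, fell most, from 93.3 ± 3.87 to 55.7 ± 1.25 CPM (log2 fold change -0.74 with an SE of 0.05, adjusted p = 1.35e-05).

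Regulators and known targets of the lipid state gave 12 lower (41.4%) and 4 higher of 29. Ppara itself fell, from 122 ± 9.74 to 50.3 ± 2.84 CPM (SD, n = 3, log2 fold change -1.27 with an SE of 0.07, adjusted p = 3.91e-06). Cd36, a fatty acid uptake receptor also made by macrophages, rose from 42.1 ± 5.49 to 144 ± 13.2 CPM (log2 fold change 1.78 with an SE of 0.10, adjusted p = 9.65e-06), beside the 13 of 15 macrophage markers called higher, whose part in it was not tested. Downstream, the tricarboxylic acid cycle had 5 lower (27.8%) and 1 higher of 18, against 20.1% lower and 21.2% higher of all genes. There Sdha, a subunit of succinate dehydrogenase, was at -0.40 on the log2 scale. Idh2, the mitochondrial NADP isocitrate dehydrogenase, was at 0.47. Nuclear genes of the respiratory chain had 13 lower and 0 higher of 21, led by Cox6c, a subunit of cytochrome oxidase, at -0.37.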

How the data were processed

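Mouse liver RNA was sequenced in 3 control and 3 CCl4 libraries, grouped by the labels. The deposited values are whole counts per gene that the authors made with HISAT2 and featureCounts, per the submitters' processing notes. Not given in the sources used here are their versions, the genome build, the strand setting and the handling of multi-mapped reads. Of 55359 Ensembl rows, 52083 matched a symbol. R 4.3.3 with edgeR 4.0.16 fitted the whole table (filterByExpr, TMM scaling, robust quasi-likelihood fit, group term only), with Benjamini-Hochberg adjustment over 15579 genes and calls at 0.05. Common biological variation was 10.6%. The fit was tested on simulated counts with far fewer changed genes than here and with changes larger than those of most members. That test does not bear on the scaling or on calls of small changes. Errors are SDs over 3 libraries; intervals are 95% from the fit. Lengths per kilobase are union exons over all transcripts of a gene, coding or not, in GENCODE's mouse annotation. Shared windows are 50 bases of transcript found in another gene. Alternatives were other scalings and filters, DESeq2 1.42.0, limma 3.58.1 (voom), a replicate block, each library left out, paralogs summed and other organelle groups. Every member is named, with values per library for called members and paralog pairs; from each other list the called gene of at least 10 CPM with the largest rise and with the largest fall is named, besides Ppara. Some listed genes are not reported by name here. Members and lists were chosen with earlier results of these data known.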

Additional observations from a re-analysis of the deposited data

How the results depend on the processing

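Across the settings tried, 14 to 21 members were called lower, 16 to 20 when a library was left out. With upper quartile scaling the median log2 fold change was -0.089 for mitochondrial and -0.50 for peroxisomal enzymes, and 3 members were called higher (Acot2, Acadm and Hadh). With library size alone, which moved the median of all genes to 0.147, 1676 genes were called lower and 4824 higher (against 3124 and 3303), 40 other pathway genes and 4 mitochondrial enzymes were called lower, 3 members were called higher, and the medians were -0.028 and -0.44. With the paralog pairs summed, 0 members were called higher. Leaving out a library gave peroxisomal medians from -0.64 to -0.52 and changes of the peroxisomal less the mitochondrial mean from -0.32 to -0.23. That change was -0.39 with broader organelle groups and -0.38 with the core spiral alone. Directions turned only in members without a call: Slc25a20 (0.068), Hadhb (0.039) and Crot (0.056) with upper quartile scaling, and Slc25a20 (0.13), Acadl (0.057), Hadha (0.0042), Hadhb (0.10), Etfa (0.0019) and Crot (0.12) with library size alone. Without 1 library they also turned in Slc25a20 (from -0.053 to 0.022), Bdh1 (from -0.036 to 0.10), Crot (from -0.082 to 0.056), Pdk4 (from -0.74 to 0.30) and Ehhadh (from -0.025 to 0.13), with control 1 (Ehhadh), control 2 (the others) or CCl4 3 (Bdh1 and Crot) left out. The cause was not tested. Under DESeq2 and limma-voom all 34 members kept their direction and side of the threshold. Correlations of deviations between libraries of the same replicate number were 0.0483, 0.004 and 0.0635, against -0.0803 to 0.0365 for different numbers. With 3 libraries in each group these values cannot exclude a pairing by number. With a replicate block 21 members were called lower, Ppargc1a being added (-0.38, adjusted p = 0.0148). Acot1 varied more between libraries (CV 21.9% in controls and 30.5% after CCl4) than Etfb at similar counts (6.8% and 8.8%).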

Other observations

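Among the controls, replicate 2 was the highest library for 5 of 8 peroxisomal and 2 of 16 mitochondrial enzymes, while replicate 3 was the highest for 13 of 16 mitochondrial enzymes. Control 2 stood at 2.96 times the mean of the other controls for Pdk4, 1.33 times for Acot1, 1.22 times for Acaa1b and Pex11a, and 1.20 times for Acsl1 and Crot. These genes were picked after their values were seen, and the ratios are a description with no test. In the same library the 8 adipocyte markers summed to 26.6 CPM, against 61.4 and 97.8 in controls 1 and 3. Over the whole table, low counts left out, CCl4 3 stood farthest from its own group. A chi-square per gene, which sets count differences between 2 libraries against sampling noise, was 25.8 with CCl4 1 and 20.1 with CCl4 2. Between CCl4 1 and CCl4 2 it was 5.7, and between controls 8.8 to 12.8. The cause was not tested.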
